A study of Mus musculus with 10 samples.

Results

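Neuronal activity switches on a group of effector genes, which carry the response to synaptic input into the synapse, the dendrite and the surrounding tissue. The 10 genes described here, out of 45195 rows of the deposited expression matrix, were taken by their symbols, with earlier results of these data known. They are Arc, Npas4, Bdnf, Homer1, Nptx2, Nptx1, Inhba, Nrn1, Rgs2 and Ptgs2. Each was found under 1 Ensembl gene ID, and 9 of the 10 passed the filter on low values, for which 2 or more libraries had to reach 1. Ptgs2 did not pass and was not tested.

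The study measured RNA in neurites, the axons and dendrites that cultured cortical neurons push through a porous membrane. Cortical neurons came from E16.5 mouse embryos, and 3 µm pores were meant to let neurites but not cell bodies reach the lower face. The libraries also held transcripts known to stay in the nucleus and markers of glia, given below. They were thus not shown to hold neurites of neurons alone. Neurites on the lower face of the injured cultures were scraped away on day 7 and those that had grown back were lysed 24 hours later, whereas naive neurites had grown undisturbed until day 8. An effect of injury and an effect of neurite age cannot be told apart. The groups were 3 libraries of wild-type naive neurites, 3 of wild-type injured, 2 of knockout naive and 2 of knockout injured neurites. Wild-type neurons were C57BL/6. The neurons called knockout here were Cpeb1 flox/flox on the same strain background. Every culture of either genotype received AAV2, a viral vector, carrying Cre recombinase under the CAG promoter, which is active in all cell types and not only in neurons. The comparison of genotypes is thus between floxed and unfloxed neurons that both carry Cre. Whether replicates came from separate cultures or litters is not given in the sources used here, so p-values measure the spread between these libraries, which may be technical.

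Cpeb1 encodes an RNA-binding protein that recognises a U-rich element, the cytoplasmic polyadenylation element, near the 3′ end of messenger RNAs and controls their poly(A) tail and translation. In activity-regulated transcription, calcium entry through NMDA receptors and voltage-gated channels activates kinases and the phosphatase calcineurin. These act on DNA-bound factors such as CREB, SRF and MEF2. Early transcription factors of the Fos, Egr and Nr4a families respond to them, as does Npas4, and with them or after them come effectors such as Arc, Bdnf and Homer1. Several effector messenger RNAs, among them those of Arc and Bdnf, are known to travel into dendrites, where they are translated near synapses.

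The libraries were poly(A)-primed Smart-seq2 libraries, which do not keep strand, made from 1 ng of RNA with 14 cycles of PCR. Values are given as FPKM, fragments scaled for transcript length and library depth, after a further factor for each library. The unit was read from the values and is not stated in the sources used here. The spacing of low values put the depth at about 21.3 to 27.9 (in units of 1e6 fragments) per library. This estimate rests on that reading and on a fragment length fitted together with the depth, 240 to 300 bases per library. Between 12231 and 13143 genes reached a value of 1 per library. Wild-type injured replicate 3 stood apart, with the fewest such genes and a mean correlation of 0.839 with the other libraries, against 0.867 to 0.898 for the rest. Cpeb1, the targeted gene, was 7.16, 5.96 and 5.86 in wild-type naive replicates 1 to 3 and 1.65, 13.8 and 22.6 in wild-type injured replicates 1 to 3. Under knockout labels, the naive replicates 1 and 2 held 5.97 and 0.356 FPKM and the injured ones 1.14 and 3.15. Against its label, knockout naive replicate 1 had a value from inside the wild-type naive range. The library labelled wild-type injured replicate 1 lay inside the knockout injured range and below every other wild-type library. Which exons are deleted is not given in the sources used here, so a gene-level value is an incomplete check. The difference in Cpeb1 between genotypes did not pass the limma test in naive neurites (-1.25 ± 0.91 log2 units, SE, adjusted p = 1) or injured neurites (-1.71 ± 0.91, adjusted p = 0.549). The differences of the 9 tested genes, and the counts of the activity lists, are also given without wild-type injured replicate 3, without the library labelled wild-type injured replicate 1 and without the library labelled knockout naive replicate 1, where these enter them.

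Positions are given in mm10 coordinates. Arc (ENSMUSG00000022602) spans chr15:74669083-74672570 on the minus strand, Npas4 (ENSMUSG00000045903) chr19:4984355-4990316 on the minus strand, and Bdnf (ENSMUSG00000048482) chr2:109674700-109727007 on the plus strand. Homer1 (ENSMUSG00000007617) spans chr13:93299635-93405129 on the plus strand, Nptx2 (ENSMUSG00000059991) chr5:144545902-144557478 on the plus strand, and Nptx1 (ENSMUSG00000025582) chr11:119538719-119547753 on the minus strand. Inhba (ENSMUSG00000041324) spans chr13:16011851-16031621 on the plus strand, Nrn1 (ENSMUSG00000039114) chr13:36725361-36735131 on the minus strand, and Rgs2 (ENSMUSG00000026360) chr1:143999338-144004161 on the minus strand. Ptgs2 (ENSMUSG00000032487) spans chr1:150100031-150108227 on the plus strand. Nrn1 shares 22.3% of its exon bases with Fars2, which runs on the opposite strand and reached at most 12.46 FPKM. Libraries without strand cannot separate their reads, so the Nrn1 values are uncertain. Bdnf has 11 annotated transcripts and Homer1 has 12, and a value per gene cannot separate the alternative first exons of Bdnf or the short and long forms of Homer1.

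Promoter sequences were available in RefSeq (GRCm38.p6) for Npas4, Bdnf, Homer1, Inhba, Rgs2 and Ptgs2, each covering 250 bases before to 50 bases after an annotated start. They were searched on both strands for the CREB element TGACGTCA, for its 5-base core TGACG, which the longer motif contains, for the AP-1 motif TGANTCA and for the CArG box of SRF. Among 32851 promoter windows of this length the motifs occurred in 1.79%, 20.8%, 7.81% and 1.63%. The windows of Npas4, Homer1 (the more upstream of its 2 windows) and Bdnf (the only one of its 7 windows with the core) are printed as examples of genes that were higher in every injured than in every naive wild-type library. Rgs2 was higher too, and its window is not printed. The window of Inhba is printed because that gene was lower. Whether the core goes with the direction of a change was not tested. They are chr19:4989922-4990221 on the minus strand for Npas4, chr13:93303507-93303806 for Homer1, chr2:109692186-109692485 for Bdnf and chr13:16011601-16011900 for Inhba, these 3 on the plus strand. Capitals mark the core TGACG or its complement CGTCA.
Npas4: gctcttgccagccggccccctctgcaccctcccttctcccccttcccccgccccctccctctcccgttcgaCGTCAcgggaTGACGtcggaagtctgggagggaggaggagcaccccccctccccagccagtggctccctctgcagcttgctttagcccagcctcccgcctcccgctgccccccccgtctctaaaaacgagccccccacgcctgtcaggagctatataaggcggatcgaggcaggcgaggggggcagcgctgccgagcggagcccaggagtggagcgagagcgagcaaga
Homer1: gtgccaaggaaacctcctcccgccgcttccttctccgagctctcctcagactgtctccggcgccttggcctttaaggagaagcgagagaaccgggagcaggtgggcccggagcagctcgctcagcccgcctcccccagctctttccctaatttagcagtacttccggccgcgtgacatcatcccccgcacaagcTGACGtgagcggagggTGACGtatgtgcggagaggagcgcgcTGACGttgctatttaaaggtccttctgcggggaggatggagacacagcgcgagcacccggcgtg
Bdnf: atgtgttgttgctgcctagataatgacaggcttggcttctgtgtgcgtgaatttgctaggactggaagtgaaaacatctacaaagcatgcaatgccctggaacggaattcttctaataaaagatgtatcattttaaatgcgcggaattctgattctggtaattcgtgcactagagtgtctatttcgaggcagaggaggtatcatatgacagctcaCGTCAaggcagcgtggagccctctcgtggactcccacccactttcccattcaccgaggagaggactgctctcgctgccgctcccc
Inhba: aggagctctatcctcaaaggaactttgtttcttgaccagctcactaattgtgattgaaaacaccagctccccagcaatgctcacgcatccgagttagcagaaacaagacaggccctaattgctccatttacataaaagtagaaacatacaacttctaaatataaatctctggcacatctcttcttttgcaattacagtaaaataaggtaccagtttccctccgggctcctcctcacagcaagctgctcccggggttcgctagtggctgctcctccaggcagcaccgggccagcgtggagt
The Npas4 window holds 2 cores, the Homer1 window 3, and the Bdnf window 1. The Inhba window holds none of the 4 motifs. The Rgs2 window holds 2 cores and the Ptgs2 window 1. None of the 13 windows of these 6 genes holds the full CREB element or a CArG box, and another Bdnf window, chr2:109676782-109677081, holds the only AP-1 motif.

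The cytoplasmic polyadenylation element was searched for as TTTTAT or TTTTAAT on the transcript strand of the longest annotated 3′ untranslated region of each gene. It occurred in 63.0% of 13116 protein-coding genes tested, with a median of 1 site and a median length of 1210 bases. Of the 10 genes, 8 held it, counted anywhere in the untranslated region and not only near its end. The last site lay 938, 914 and 819 bases before the annotated transcript end in Nptx1, Nrn1 and Rgs2. In Homer1, Bdnf, Nptx2, Ptgs2 and Inhba that distance was 325, 227, 134, 51 and 4 bases. Arc (1668 bases) and Npas4 (713 bases) held none. Homer1 held 15 in 4349 bases, Inhba 10 in 4492, Bdnf 8 in 2855, Nrn1 6 in 1267, Ptgs2 4 in 2445, Rgs2 3 in 2342, Nptx1 2 in 3754 and Nptx2 1 in 1084. The last element of each of 4 genes is shown within its neighbouring bases, for Bdnf and Homer1, rich in elements and higher in injured wild-type neurites, for Inhba, rich in elements and lower there, and for Nptx2 with its lone element. Capitals mark the element.
Bdnf: ggcctgttgcttTTTTATagtgattcccat
Homer1: gaaaattaaaatTTTTATtttgttaattgc
Inhba: ttgggatgtattTTTTATtttt
Nptx2: aaatattatataTTTTATttttcatacatg
These lie at chr2:109726763-109726792, chr13:93360120-93360149, chr13:16031600-16031621 and chr5:144557327-144557356, all on the plus strand. The Homer1 count and site belong to the transcript ENSMUST00000102752.9, whose end lies within the gene. They do not describe Homer1 transcripts that end elsewhere. The AU-rich heptamer TATTTAT, a motif of short-lived messenger RNAs, occurred in 30.9% of these genes. It was found 6 times in Ptgs2, 5 times in Inhba, 3 times in Bdnf and 1 time in Nptx1, and was not found in the other 6 genes.

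In naive wild-type neurites the genes formed an upper and a lower set, by mean FPKM, a level per transcript length. Inhba (26.4), Rgs2 (26.3), Homer1 (19.8) and Nrn1 (10.8) lay above the median tested gene (7.32), and Bdnf (3.93), Nptx2 (1.61), Arc (0.819), Npas4 (0.694) and Nptx1 (0.471) below it. The libraries of Inhba and Homer1 overlapped those of Rgs2. Nrn1 lay apart from Homer1 above it and Bdnf below it, and Bdnf overlapped all 4 genes beneath it. In injured wild-type neurites the order was Npas4 (54.0), Rgs2 (47.7), Homer1 (35.4), Nrn1 (19.8), Bdnf (14.5), Arc (14.1), Nptx2 (11.1), Inhba (10.8) and Nptx1 (5.48). Homer1 there lay below every Rgs2 value and above every Nrn1 value, and all other neighbours in the order overlapped. Inhba had moved from the top of the order to the place above Nptx1, and Npas4 from the place above Nptx1 to the top.

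**Figure D1:**
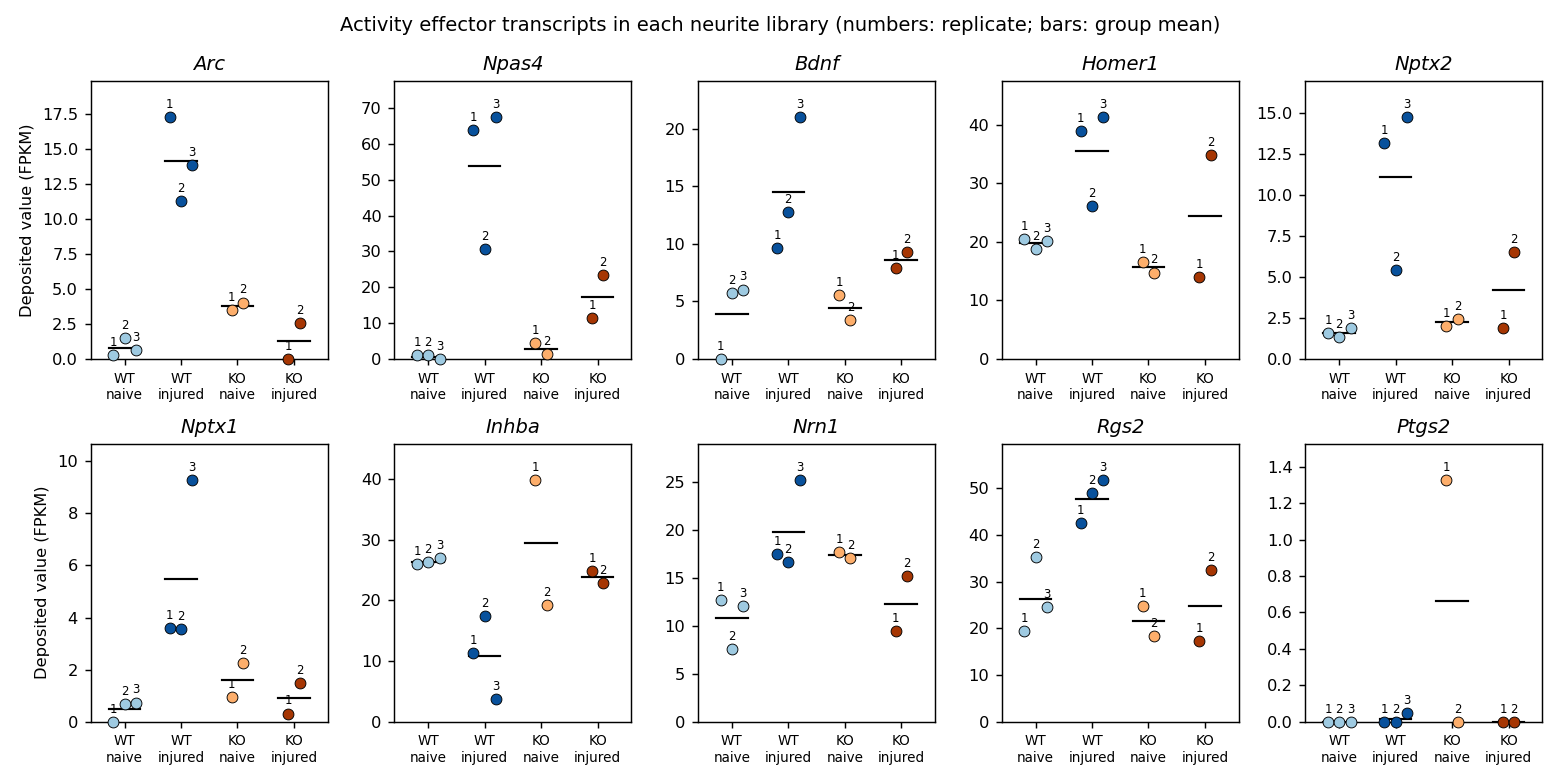
Level of each gene in FPKM in every library, 1 panel per gene, with 1 point per library and a bar at the group mean. In all panels but those of Inhba and Ptgs2, the 3 wild-type injured points lie above the 3 wild-type naive points, and for Inhba they are the lower ones.

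The first comparison, injured against naive wild-type neurites, asks which transcripts differ in neurites that regrew after scraping. Of the 9 genes tested, 8 were higher in every injured library than in any naive library, and Inhba was lower in every injured library. The same separation was found in 9.78% of all 15712 tested genes for higher and 8.02% for lower values. Only Arc and Npas4 passed the test over all genes, and both rose. Across all genes 0.7% were called higher. The median log2 change of the 9 genes was 2.03, against 0.0092 over all tested genes. Npas4 alone passed without the library labelled wild-type injured replicate 1, without wild-type injured replicate 3 or without the library labelled knockout naive replicate 1, with medians of 1.95, 1.68 and 2.03. Changes are differences of mean log2(FPKM + 1) with their standard error, which understate the change of low genes, and adjusted p-values come from limma with Benjamini-Hochberg adjustment over all tested genes. In RNA from a bulk sample, fewer cells or neurites of a type and less RNA in each cannot be told apart.

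Npas4 encodes a neuronal transcription factor that is induced by calcium entry and drives genes of inhibitory and excitatory synapses, Bdnf among them. Its level was 1.025, 1.01 and 0.049 FPKM in naive wild-type replicates 1 to 3 and 63.8, 30.7 and 67.4 in injured replicates 1 to 3. The groups lay far apart, with the lowest injured value, in replicate 2, well above the highest naive one. It rose by 5.002 ± 0.54 log2 units (SE, limma adjusted p = 0.00101, n = 3 and 3), and only 5 of the 15712 tested genes had a larger change. Without wild-type injured replicate 3 the value was 4.80 ± 0.61 (limma adjusted p = 0.00616), and without the library labelled wild-type injured replicate 1 it was 4.84 ± 0.63 (limma adjusted p = 0.0135). Over all 20 alternative settings the value ranged from 3.31 to 6.48, with limma adjusted p from 0.000487 to 0.0318.

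Arc encodes a protein of the postsynaptic density that promotes endocytosis of AMPA-type glutamate receptors and can form virus-like capsids. Its level was 0.273, 1.505 and 0.679 FPKM in the naive wild-type libraries and 17.3, 11.3 and 13.9 in the injured ones. All injured values were more than the highest naive value. It rose by 3.09 ± 0.60 log2 units (SE, limma adjusted p = 0.0328, n = 3 and 3), and 48 tested genes had a larger change. That call was less firm than the one for Npas4. It was lost without wild-type naive replicate 1, 2 or 3 (limma adjusted p = 0.153, 0.0907 and 0.119), when injured replicate 1 or 3 of the wild type was dropped (limma adjusted p = 0.0959 and 0.0712), or without knockout naive replicate 1 or 2 (limma adjusted p = 0.0632 and 0.0645). The difference ranged from 2.87 to 3.35 log2 units with a library left out. Over all 20 settings it ranged from 1.71, with a pseudocount of 5, to 4.18, with one of 0.1, and limma adjusted p from 0.0141 to 0.154.

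Bdnf, the secreted neurotrophin that acts on the receptor TrkB, was 0.01, 5.74 and 6.035 FPKM in naive and 9.67, 12.8 and 20.99 in injured wild-type libraries. Replicate 1 set the naive group apart, since 0.01 was the smallest value above 0 listed in that library. The difference was 2.03 ± 0.69 log2 units and did not pass (SE, limma adjusted p = 0.222). Without that library it was 1.10, lower by more than 1.5 times.

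Nptx2 and Nptx1 encode the secreted neuronal pentraxins NP2, also called Narp, and NP1, which gather AMPA receptors at synapses. Nptx2 was 1.56, 1.36 and 1.92 FPKM in naive and 13.2, 5.44 and 14.8 in injured wild-type libraries. Injured replicate 2 was the lowest of the injured libraries and still above each naive one. The difference, 2.12 ± 0.57 log2 units, did not pass (SE, limma adjusted p = 0.122). Nptx1 was listed at 0 in naive replicate 1 and was 0.676 and 0.738 FPKM in the other naive libraries, against 3.61, 3.57 and 9.28 in the injured ones. The groups did not overlap, and injured replicate 3, the library that stood apart, was the highest. The difference was 2.07 ± 0.58 log2 units (SE, limma adjusted p = 0.136), and 1.68 ± 0.58 without that replicate (limma adjusted p = 0.257).

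Homer1, Rgs2 and Nrn1 were already abundant in naive neurites and differed by less. Homer1 encodes a postsynaptic scaffold that links metabotropic glutamate receptors to intracellular calcium stores, and its short activity-induced form, Homer1a, breaks that link. Its level was 20.55, 18.8 and 20.1 FPKM in naive and 39.0, 26.1 and 41.3 in injured wild-type libraries, which did not overlap. The difference was 0.78 ± 0.35 log2 units (SE, limma adjusted p = 0.340). Rgs2, a protein that shortens signalling through the G protein alpha q, was 19.3, 35.15 and 24.5 FPKM in naive and 42.5, 48.9 and 51.7 in injured libraries. Naive replicate 2 came nearest to the injured range. The difference was 0.87 ± 0.32 log2 units (SE, limma adjusted p = 0.253). Nrn1, also called neuritin or CPG15, is a membrane-anchored protein that promotes the growth of neurites. It was 12.7, 7.61 and 12.1 FPKM in naive and 17.5, 16.6 and 25.2 in injured libraries. The groups lay side by side without overlap. The difference was 0.82 ± 0.36 log2 units (SE, limma adjusted p = 0.332).

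Inhba encodes the subunit of activin A, a secreted ligand of the TGF-beta family that is induced by synaptic activity in many neurons. It differed from the other 8 in direction. Its level was 25.9, 26.3 and 26.9 FPKM in naive wild-type libraries and 11.3, 17.5 and 3.69 in injured ones. The naive libraries lay close together, the injured ones were spread, and the lowest was replicate 3. The difference was -1.42 ± 0.46 log2 units and did not pass (SE, limma adjusted p = 0.196). Without injured replicate 3 it was -0.86 ± 0.35 (limma adjusted p = 0.357), smaller in size by more than 1.5 times. With that replicate left out, Bdnf, Nptx2, Homer1, Rgs2 and Nrn1 had differences of 1.74, 1.88, 0.66, 0.81 and 0.64 log2 units, in the same direction as with it. Without the library labelled wild-type injured replicate 1, Bdnf, Nptx2, Nptx1, Homer1, Rgs2, Nrn1 and Inhba had differences of 2.26, 1.95, 2.26, 0.70, 0.95, 0.90 and -1.56, and none of these passed. Ptgs2, which encodes the inducible cyclooxygenase COX-2, was listed at 0 in all wild-type libraries except injured replicate 3, where it was 0.049 FPKM.

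Several genes shared their lowest or highest library. In wild-type injured replicate 2 the lowest value of the group was found for 6 of the 9 tested genes, namely Arc, Npas4, Homer1, Nptx2, Nptx1 and Nrn1. In replicate 3 the highest value was found for 7 of them. That library also had the largest total of values over all genes, 1.17e+06 against 726420 to 977594 in the other libraries. The share of all tested genes ordered in this way was not computed, so these orders are not read as a trait of the 9 genes. Relative to the wild-type naive mean, the median of the 9 genes was 1.56, 1.31 and 2.60 log2 units in wild-type injured replicates 1 to 3. Over the same comparison the sum of 8 transcripts known to stay in the nucleus was 2782 to 4203 FPKM in naive and 6105 to 7336 in injured wild-type libraries. Malat1 made up most of that sum, at 1856 to 3440 FPKM in naive and 5513 to 6633 in injured libraries. Of the 8 transcripts it alone passed the test, and it rose by 1.23 ± 0.26 log2 units (SE, limma adjusted p = 0.0455). That call was lost without the library labelled wild-type injured replicate 1, without wild-type injured replicate 3 and without the library labelled knockout naive replicate 1 (limma adjusted p = 0.134, 0.0829 and 0.0744). Only 2 of the 8 transcripts had a change above 0, and the median of the 8 was -0.19 log2 units. Summed astrocyte markers, 9 genes, were 398 to 542 FPKM in naive and 620 to 1473 in injured libraries, highest in replicate 3, and 1 of the 9, Sox9, rose, also without each of those 3 libraries in turn. Summed interneuron markers, 11 genes, were 455 to 712 FPKM in naive and 56.9 to 90.2 in injured libraries, and 5 of the 11 fell, or 3 without each of those 3 libraries in turn, against 0.248% of all tested genes called lower. Summed pan-neuronal markers, 8 genes, were 3374 to 3735 FPKM in naive and 2130 to 2883 in injured libraries, with none of the 8 below 1 in every library. None of the 8 passed, 2 of them had a change above 0, and their median was -0.62 log2 units. Summed projection neuron markers, 8 genes, were 240 to 264 FPKM in naive and 221 to 306 in injured libraries, so these overlapped, and none of them passed. Summed radial glia markers, 8 genes, were 2273 to 2801 and 2555 to 4784 FPKM, with Eomes below 1 everywhere. Fabp7 made up most of that sum, at 2106 to 2580 FPKM in naive and 2178 to 4075 in injured libraries, and did not pass. Vim alone rose, a call lost without each of those 3 libraries (limma adjusted p = 0.0895, 0.120 and 0.0707). Summed oligodendrocyte lineage markers, 8 genes, were 158 to 176 and 162 to 405 FPKM. The 9 endothelial, mural and fibroblast markers summed to 5.14 to 75.9 FPKM in naive and 12.9 to 60.3 in injured libraries, with Lum below 1 everywhere. The 8 microglial markers summed to at most 3.97 and 3.51 FPKM, with Cx3cr1, Tmem119 and Trem2 below 1 in every library. The part of these markers in the differences of the 9 genes was not tested.

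The second comparison asks the same of knockout neurites. None of the 9 genes passed the test there, and 0.0573% of all tested genes were called. The median of the 9 was 0.15 log2 units, against -0.087 over all tested genes. Npas4 and Bdnf were higher in both injured libraries than in both naive ones, which held for 13.5% of all tested genes. Arc and Nrn1 were lower in both, which held for 22.1%. The other 5, Homer1, Nptx2, Nptx1, Inhba and Rgs2, overlapped between the groups. With 2 libraries in each group these comparisons are less precise than those in wild type.

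Npas4 was 4.52 and 1.26 FPKM in knockout naive replicates 1 and 2 and 11.4 and 23.4 in knockout injured replicates 1 and 2. Both injured values lay above both naive ones and below every wild-type injured value. The difference was 2.29 ± 0.66 log2 units and did not pass (SE, limma adjusted p = 0.562). Without the library labelled knockout naive replicate 1 it was 2.94 ± 0.79 (limma adjusted p = 0.941). Arc was 3.49 and 4.04 FPKM in the knockout naive libraries, listed at 0 in injured replicate 1 and 2.58 in injured replicate 2. Both injured values thus lay below the naive ones, the reverse of the order in wild type. The difference was -1.33 ± 0.73 log2 units (SE, limma adjusted p = 0.933), and -1.41 ± 0.94 without the library labelled knockout naive replicate 1 (limma adjusted p = 1). It was -0.41 without injured replicate 1, the library listed at 0, and -2.25 without injured replicate 2. Bdnf was 5.55 and 3.37 FPKM in the naive knockout libraries and 7.87 and 9.30 in the injured ones. These groups did not overlap. The difference was 0.84 ± 0.85 log2 units (SE, limma adjusted p = 0.983).

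The remaining genes showed how far apart the knockout injured libraries were. Homer1 was 16.6 and 14.8 FPKM in naive and 14.1 and 34.9 in injured libraries. Nptx2 was 2.035 and 2.43 FPKM in naive and 1.92 and 6.55 in injured libraries. For both genes injured replicate 1 lay below the naive values and replicate 2 above them. Their differences were 0.48 ± 0.43 and 0.54 ± 0.70 log2 units (SE, limma adjusted p = 0.977 and 0.985). Nptx1 was 0.962 and 2.27 FPKM in naive and 0.315 and 1.48 in injured libraries, and Rgs2 24.8 and 18.3 in naive and 17.3 and 32.4 in injured ones. Neither gene separated the groups, with differences of -0.49 ± 0.71 and 0.15 ± 0.39 log2 units (SE, limma adjusted p = 0.991 and 1). Nrn1 was 17.7 and 17.0 FPKM in naive and 9.43 and 15.2 in injured libraries, lower in both. Its difference was -0.50 ± 0.44 log2 units (SE, limma adjusted p = 0.977). Inhba was 39.8 and 19.2 FPKM in naive and 24.8 and 22.8 in injured libraries, with both injured values between the naive ones. Its difference was -0.21 ± 0.56 log2 units (SE, limma adjusted p = 1), and it turned to 0.30 without the library labelled knockout naive replicate 1. Without that library the differences of Bdnf, Homer1, Nptx2, Rgs2, Nptx1 and Nrn1 kept their direction, at 1.13, 0.56, 0.45, 0.36, -0.86 and -0.48 log2 units. Injured replicate 1 held the lower value of the pair for 8 of the 9 genes, all but Inhba. The share of all tested genes lower in that library was not computed. Without injured replicate 2 the differences of Homer1, Nptx2 and Rgs2 turned negative, at -0.14, -0.14 and -0.29, and without knockout naive replicate 2 that of Rgs2 was -0.061. Ptgs2 was 1.33 FPKM in the library labelled knockout naive replicate 1 and was listed at 0 in the other 3 knockout libraries.

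**Figure D2:**
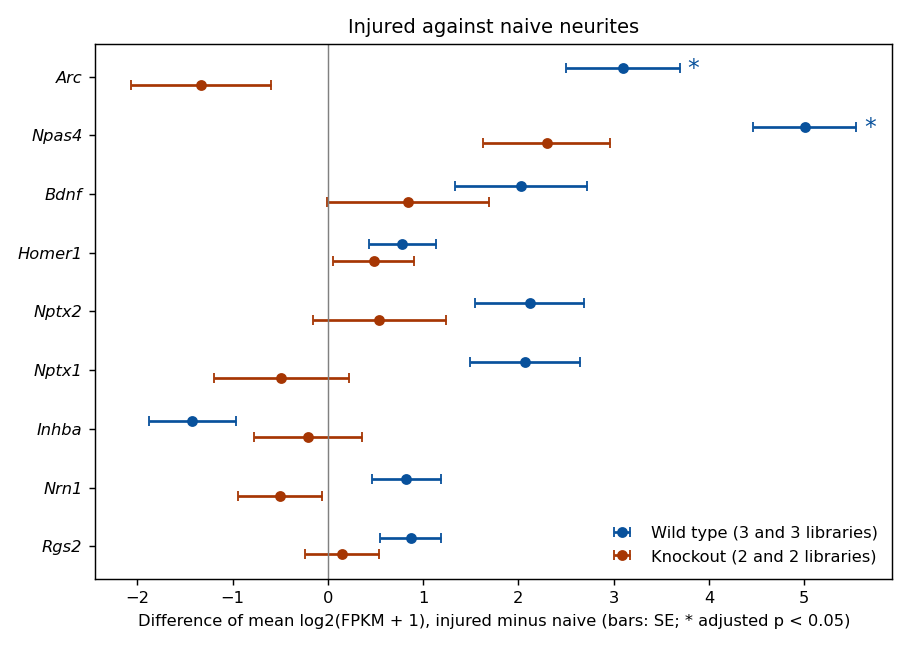
Difference between injured and naive neurites on the log2(FPKM + 1) scale for the 9 tested genes in wild type and in knockout, with points for the limma estimate and bars for its standard error. The wild-type points lie above 0 for 8 genes, with Npas4 at 5.002 and Arc at 3.09, and the knockout points lie between -1.33 and 2.29.

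In knockout neurites the sum of nuclear-retained transcripts was 2354 to 3239 FPKM in naive and 1834 to 2984 in injured libraries, so these groups overlapped and none of the 8 transcripts passed. Interneuron markers summed to 488 to 857 FPKM in naive and 65.9 to 117 in injured knockout libraries. Sst alone passed as lower, a call lost without the library labelled wild-type injured replicate 1 or the one labelled knockout naive replicate 1. Only 2 of the 11 markers had a change above 0, and their median was -2.29 log2 units, against -2.15 in wild type. Astrocyte markers summed to 492 to 563 and 729 to 822 FPKM, with none of the 9 passing. Projection neuron markers summed to 291 to 320 FPKM in naive and 327 to 379 in injured knockout libraries. None of those 8 passed, and 4 had a change above 0. Radial glia markers, again mostly Fabp7, summed to 3135 to 4217 and 3783 to 3824 FPKM, oligodendrocyte markers to 114 to 207 and 237 to 240, and pan-neuronal markers to 3937 to 4317 and 2967 to 3991. Their part in the differences was not tested.

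The third comparison asks whether naive neurites of the genotypes differ. None of the 9 genes passed the test, against 0.146% of all tested genes called. Arc, Npas4, Nptx2, Nptx1 and Nrn1 were nevertheless higher in both knockout libraries than in all 3 wild-type ones, a separation found in 14.1% of all tested genes. Homer1 was lower in both, as were 8.51% of all tested genes. Arc had the largest difference, 3.49 and 4.04 FPKM against 0.273 to 1.505, or 1.44 ± 0.67 log2 units (SE, limma adjusted p = 1). It was 1.53 ± 0.89 without the library labelled knockout naive replicate 1. Npas4 differed by 1.12 ± 0.61 log2 units (SE, limma adjusted p = 1), and by 0.48 without that library, which held the higher of its knockout naive values. Nptx1 and Nrn1 differed by 0.83 ± 0.64 and 0.67 ± 0.40 log2 units, and Nptx2 by 0.31 ± 0.64 (SE, limma adjusted p = 1 for each). Bdnf, Inhba and Rgs2 overlapped between the genotypes. Homer1 and Rgs2 differed by -0.32 ± 0.39 and -0.25 ± 0.36. The Bdnf difference was 0.56 ± 0.78 log2 units and turned to -0.36 without wild-type naive replicate 1, the library listed at 0.01. That of Inhba was 0.067 ± 0.51 and turned to -0.014 with quantile normalization and with median-ratio scaling, and to -0.44 without the library labelled knockout naive replicate 1. Without it the differences of Nptx1, Nrn1, Nptx2, Bdnf, Homer1 and Rgs2 were 1.196, 0.64, 0.40, 0.27, -0.40 and -0.46. The median over the 9 genes was 0.56 log2 units, against 0.063 over all tested genes. Pan-neuronal markers summed to 3937 to 4317 FPKM in knockout naive libraries against 3374 to 3735 in wild-type naive ones. Projection neuron markers summed to 291 to 320 against 240 to 264, and radial glia markers, mostly Fabp7, to 3135 to 4217 against 2273 to 2801. No marker of these lists passed between naive genotypes. Of those tested, 6 of 8, 4 of 8 and 3 of 7 had a difference above 0. Sums of the other marker lists overlapped between the naive genotypes. The part of these markers in the differences of the 9 genes was not tested.

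The fourth comparison asks the same of injured neurites. Arc, Npas4, Bdnf, Nptx1, Nrn1 and Rgs2 were lower in both knockout libraries than in all 3 wild-type ones, as were 12.2% of all tested genes. Inhba was higher in both, as were 9.72% of all tested genes. None of the 9 passed the test, and 0.261% of all tested genes were called. The median of the 9 was -0.98 log2 units, against -0.049 over all tested genes, and Inhba alone lay above 0.

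Arc in the knockout injured libraries, 0 and 2.58 FPKM, compared with 11.3 to 17.3 in the wild-type injured libraries, a gap larger than the spread within either group. The difference was -2.98 ± 0.67 log2 units (SE, limma adjusted p = 0.120), and 44 of 15712 tested genes had a lower value. It was -2.06 without knockout injured replicate 1, the library listed at 0, and -3.90 without replicate 2. Npas4, at 11.4 and 23.4 FPKM against 30.7 to 67.4, differed by -1.58 ± 0.61 log2 units (SE, limma adjusted p = 0.383). Nptx1, at 0.315 and 1.48 FPKM against 3.57 to 9.28, differed by -1.73 ± 0.64 (SE, limma adjusted p = 0.366). The 3 genes were thus lower by more than 1 log2 unit in knockout, without passing. Rgs2, at 17.3 and 32.4 FPKM against 42.5 to 51.7, differed by -0.98 ± 0.36 log2 units (SE, limma adjusted p = 0.356). Nptx2 differed by -1.27 ± 0.64 (SE, limma adjusted p = 0.519), but its knockout injured replicate 2, at 6.55 FPKM, lay above wild-type injured replicate 2, at 5.44. Bdnf, Nrn1 and Homer1 differed by -0.63 ± 0.78, -0.65 ± 0.40 and -0.62 ± 0.39 log2 units (SE, limma adjusted p = 0.798, 0.604 and 0.611). Homer1 overlapped, and without knockout injured replicate 1 its difference was 0.0038. Inhba, at 24.8 and 22.8 FPKM against 3.69 to 17.5, differed by 1.28 ± 0.51 log2 units (SE, limma adjusted p = 0.408). Without wild-type injured replicate 3 that value was 0.72 ± 0.38 (limma adjusted p = 0.548), lower by more than 1.5 times, while those of Arc and Npas4 were -2.98 ± 0.72 and -1.38 ± 0.67 (limma adjusted p = 0.160 and 0.486). The values of Nptx1, Nptx2, Rgs2, Homer1, Nrn1 and Bdnf without it were -1.34, -1.03, -0.92, -0.50, -0.47 and -0.34 log2 units. Without the library labelled wild-type injured replicate 1, Arc, Npas4 and Nptx1 differed by -2.84, -1.42 and -1.92, Nptx2, Rgs2 and Bdnf by -1.10, -1.05 and -0.87, and Nrn1, Homer1 and Inhba by -0.73, -0.54 and 1.41.

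Beside these values, nuclear-retained transcripts summed to 1834 to 2984 FPKM in knockout injured libraries against 6105 to 7336 in wild-type injured ones, of which Malat1 made up 1236 and 2424 against 5513 to 6633. Malat1 fell by 1.79 ± 0.29 log2 units from wild type to knockout (SE, limma adjusted p = 0.0200), a call lost without the library labelled wild-type injured replicate 1 (limma adjusted p = 0.0933). Of the 8 transcripts 3 had a difference above 0, with a median of -0.37. Pan-neuronal markers summed to 2967 to 3991 FPKM against 2130 to 2883, and projection neuron markers, 8 genes, to 327 to 379 against 221 to 306. Both sums were higher in knockout in naive neurites too. None of the markers of these lists passed between injured genotypes, and 5 of the 8 in each list had a difference above 0. The part of these transcripts in the differences of the 9 genes was not tested.

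**Figure D3:**
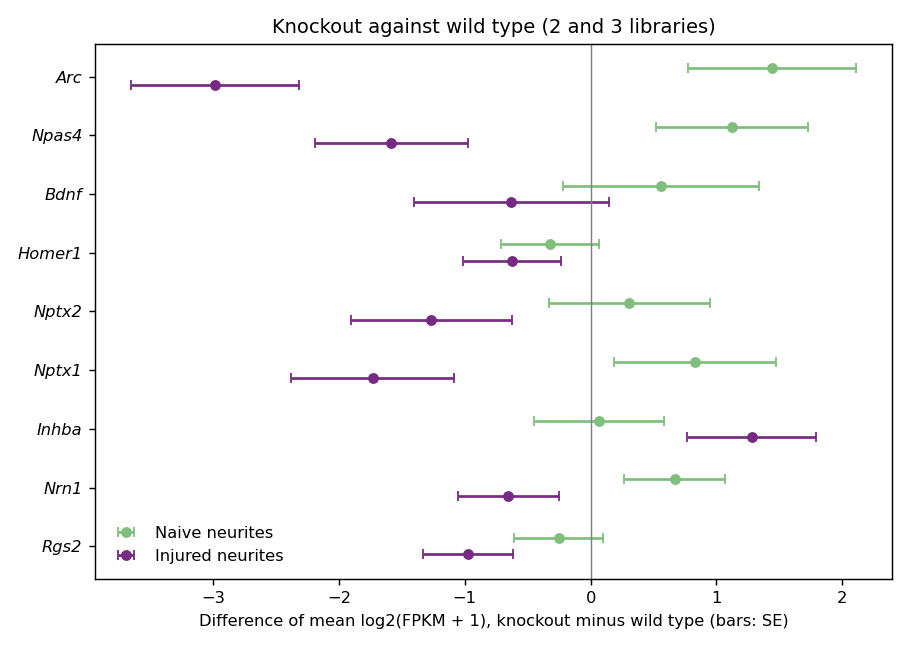
Difference between knockout and wild-type neurites on the log2(FPKM + 1) scale for the 9 tested genes in naive and in injured neurites, with points for the limma estimate and bars for its standard error. In naive neurites Arc has the highest point, at 1.44, and in injured neurites it has the lowest, at -2.98.

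Arc, Npas4, Nptx1 and Nrn1 were above wild type in both knockout naive libraries and below it in both knockout injured ones, a pattern found in 1.46% of all tested genes. Arc and Nrn1 were higher in every injured wild-type library and lower in both injured knockout libraries than in the naive ones of their genotype, a pattern found in 1.37%. The test of the difference between the injury changes, knockout minus wild type, called 0% of all tested genes, that is 0 genes by limma, with 979 at an unadjusted p under 0.05 and 0 to 13 called in the other settings run. Arc had a difference of -4.42 ± 0.94 log2 units (SE, limma unadjusted p = 0.000439, adjusted p = 0.529), the 11th smallest p of 15712. It was -4.43 ± 0.98 without wild-type injured replicate 3 and -4.51 ± 1.13 without the library labelled knockout naive replicate 1 (limma adjusted p = 0.427 and 0.999). Npas4 had -2.71 ± 0.86 and Nptx1 -2.56 ± 0.91 log2 units (SE, limma adjusted p = 0.791 for each). Without wild-type injured replicate 3 these were -2.51 and -2.17, and without the library labelled knockout naive replicate 1 they were -2.06 and -2.93. Nrn1 had -1.32 ± 0.57 log2 units (SE, limma adjusted p = 0.791), Nptx2 -1.57, Bdnf -1.19, Rgs2 -0.72 and Homer1 -0.30. Inhba alone lay above 0, at 1.21 ± 0.73 (SE, limma adjusted p = 0.813). For Nrn1 and Inhba the values were -1.14 and 0.65 without wild-type injured replicate 3 and -1.30 and 1.72 without the library labelled knockout naive replicate 1. For Nptx2, Bdnf, Rgs2 and Homer1 they were -1.33, -0.90, -0.66 and -0.18 without wild-type injured replicate 3 and -1.66, -0.90, -0.51 and -0.22 without the library labelled knockout naive replicate 1. Without the library labelled wild-type injured replicate 1, Arc, Npas4 and Nptx1 had -4.28, -2.55 and -2.75, Nptx2, Bdnf and Nrn1 -1.41, -1.42 and -1.40, and Rgs2, Homer1 and Inhba -0.80, -0.22 and 1.35. Single libraries moved some values by more than 1.5 times. Bdnf had -0.27 without wild-type naive replicate 1, Inhba 0.70 without knockout naive replicate 2, and without knockout injured replicate 1 Nptx2 had -0.89, Rgs2 -0.29 and Homer1 0.33. Without knockout injured replicate 2, Rgs2 had -1.16 and Homer1 -0.93, and without wild-type injured replicate 2 Homer1 had -0.50. The median of the 9 was -1.32 log2 units and that of all tested genes -0.13. Quantile normalization moved the median of all genes to 0.017 and median-ratio scaling moved it to -0.0012, shifts of more than 0.1. No gene of the 9 was called in this test in any of the 19 alternative settings.

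**Figure D4:**
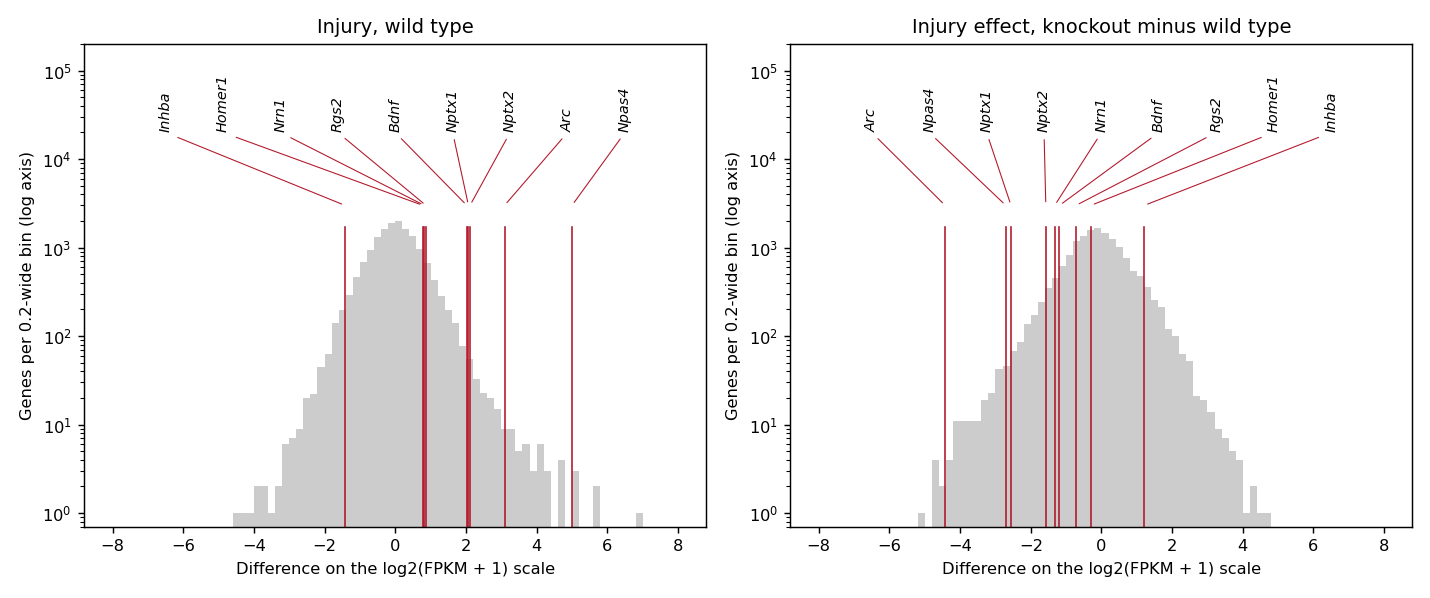
Histograms of all 15712 tested genes by their injury change in wild type (left) and by the difference of the injury changes, knockout minus wild type (right), on the log2(FPKM + 1) scale in bins 0.2 wide with a log count axis, and a line for each of the 9 genes. In the wild-type histogram Npas4 lies near the upper end, at 5.002, and in the other Arc lies near the lower end, at -4.42.

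Other genes of the activity response were taken from lists, which were chosen with earlier results of these data known. Their counts and medians are therefore given as descriptions. Of 16 early transcription factors 11 rose and none fell in injured wild-type neurites, with a median of 3.29 log2 units against 0.0092 over all tested genes, of which 0.7% were called higher. In injured knockout neurites 2, Junb and Nr4a1, rose, with a median of 1.96 against -0.087 over all tested genes, of which 0.0573% were called. Without the library labelled wild-type injured replicate 1, without wild-type injured replicate 3 and without the library labelled knockout naive replicate 1, 8, 9 and 8 of the 16 rose in wild type and 0, 3 and 0 in knockout. Fos, a subunit of AP-1, was 2.11, 1.23 and 4.34 FPKM in naive and 478, 267 and 501 in injured wild-type libraries. In knockout it was 10.9 and 17.4 FPKM in naive and 88.8 and 340 in injured libraries. Its injury change was 6.91 ± 0.47 log2 units in wild type and 3.56 ± 0.58 in knockout (SE, limma adjusted p = 1.68e-05 and 0.0551). As for Npas4, injured replicate 2 of the wild type held the lowest of the injured wild-type values, and knockout injured replicate 1 the lower of its pair. Between injured genotypes all 16 had a value of 0 or below, with a median of -1.26 against -0.049 over all tested genes and none passing (1, Egr2, fell without wild-type injured replicate 3), and the test of the difference between the injury changes passed for none of them, with a median of -1.24 against -0.13. Nr4a1, an orphan nuclear receptor, differed by -2.09 ± 0.42 log2 units between injured genotypes (SE, limma adjusted p = 0.0728). Jun, Nr4a2 and Egr1 rose by 3.26, 2.94 and 3.32 log2 units in injured wild-type neurites (limma adjusted p = 0.000477, 0.00248 and 0.00514). Of 29 other activity-regulated genes tested, out of 32, 7 rose and none fell in injured wild-type neurites, with a median of 0.99, and none passed in injured knockout neurites, with a median of 0.26. Among the 7 were Gadd45b, Gem, Scg2, Dusp1, Cdkn1a and Sik1. The number that rose was 3, 5 and 5 with the same 3 libraries left out in turn. Scg2, which encodes the granule protein secretogranin II, was 188, 203 and 196 FPKM in injured wild-type and 55.5 and 93.8 in injured knockout libraries. It fell by 1.42 ± 0.26 log2 units between them (SE, limma adjusted p = 0.0417), a call lost without each of the 3 (limma adjusted p = 0.0968, 0.0870 and 0.0797). With all libraries no other gene of the activity lists passed between genotypes. Of 27 tested genes that carry the activity signal, such as channels, kinases and DNA-bound factors, none passed in any comparison, and their median was -0.23 in wild type after injury. Camk2a, a calcium-dependent kinase whose messenger RNA lies in dendrites, had the smallest p, with -1.35 ± 0.31 log2 units in wild type and -1.71 ± 0.38 in knockout after injury (SE, limma adjusted p = 0.0610 and 0.252).

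Partners of the effectors were also taken by list, and named by the smallest p where none passed. None of 8 Arc partners, 9 genes of the Bdnf receptor pathway, 11 genes of the Homer and metabotropic glutamate receptor scaffold, 13 of the activin pathway, 11 of the RGS and Gq group or 9 of the prostaglandin pathway passed in any comparison. Their medians in wild type after injury were -0.37, -0.045, 0.090, -0.10, -0.41 and 0.076 log2 units. Ap2m1, a clathrin adaptor subunit, had -0.36 ± 0.15, Gab1, a docking protein, 1.18 ± 0.51, and Dlgap1, a postsynaptic scaffold, -0.72 ± 0.27 log2 units there (SE, limma adjusted p = 0.314, 0.324 and 0.259). Ntrk2, the receptor of Bdnf, was 39.3, 45.9 and 40.2 FPKM in naive and 40.5, 38.9 and 55.1 in injured wild-type libraries, and these overlapped. Fst, the secreted inhibitor that binds activin, was 22.2, 10.4 and 16.6 FPKM in naive and 3.73, 4.37 and 3.69 in injured wild-type libraries. Like Inhba, it was lower in every injured wild-type library. Its difference, -1.77 ± 0.39 log2 units, did not pass (SE, limma adjusted p = 0.0553). Rgs8 had -2.09 ± 0.92 in knockout after injury, and Pla2g4a, a phospholipase that releases arachidonic acid, 2.56 ± 0.60 between injured genotypes (SE, limma adjusted p = 0.852 and 0.144). Of 10 genes of the pentraxin and AMPA receptor group 1 fell after injury in wild type and none rose, with a median of -0.54. It was Cnih2, an auxiliary subunit of AMPA receptors, at 279, 283 and 293 FPKM in naive and 112, 157 and 172 in injured wild-type libraries. It fell by 0.98 ± 0.19 log2 units (SE, limma adjusted p = 0.0351, but 0.0964 and 0.0578 without the libraries labelled wild-type injured replicate 1 and knockout naive replicate 1), opposite in direction to the values of Nptx2 and Nptx1. Nptxr, the membrane-bound pentraxin receptor, was 33.7, 34.04 and 35.7 FPKM in naive and 26.6, 23.1 and 7.41 in injured wild-type libraries, lower in each.

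Across the 10 libraries the genes went together to different degrees. Pearson correlations of log2(FPKM + 1) are given as descriptions, since libraries share their group and each library's depth bears on all its genes. Inhba correlated negatively with each of the other 8 tested genes, from -0.860 to -0.545. The other pairs correlated positively, from 0.361 for Bdnf and Nrn1 to 0.914 for Arc and Nptx1. Of 7501 protein-coding genes at or above the median level, those most like Npas4 were Myc (0.983), Junb (0.982) and Nr4a1 (0.982), all early-response genes. Those most like Arc were Sf3b1 (0.953), Hsp90aa1 (0.937) and Btg1 (0.922). Those most like Nptx1 were Srsf1 (0.961), Hsp90aa1 (0.945) and Cebpd (0.942), and those most like Nptx2 were Irf2bpl (0.968), Brd2 (0.965) and Ier5l (0.965). Homer1 and Rgs2 shared Ier5 (0.939 and 0.927) among their 3 nearest genes, beside Rlbp1 (0.970) and Pclaf (0.938) for Homer1 and Rev3l (0.922) and Mapk14 (0.916) for Rgs2. Those of Bdnf were Txnrd3 (0.947), Safb2 (0.929) and Eci1 (0.920). Those of Nrn1 were Gpx4 (0.953), Gm10800 (0.931) and Rab10 (0.907), and those of Inhba were Tm2d3 (0.976), Uspl1 (0.969) and Nop14 (0.965). The named genes are the nearest of several. The number of searched genes with a correlation of at least 0.9 was 53 for Npas4, 61 for Nptx2 and 60 for Inhba. For the other tested genes it was 4 to 13.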

How the data were processed

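Poly(A) RNA of 10 neurite libraries was sequenced by the submitters. Their processing notes name STAR 2.4.2a, RSEM 1.2.21 and mm10. The deposited matrix holds 45195 Ensembl gene IDs, and FPKM is the unit assumed for the authors' deposited values, since no source used here names it. Within a library the values are multiples of 0.01 divided by a factor of its own, and the totals before that division differ between libraries, unlike those of TPM. Gene names and positions came from GENCODE M21, which held 44548 of the IDs. Groups came from the sample titles. Values were analysed as log2(FPKM + 1) in limma 3.58.1 (R 4.3.3), with a mean-variance trend and 4 group means in 1 fit of all 10 libraries. The 15712 genes with at least 1 in at least 2 libraries were tested, with Benjamini-Hochberg adjustment and a threshold of 0.05. The fit left 6 residual degrees of freedom. No near-identical copy (95% over 150 bases, blastn 2.17.0) of the genes was found, other than the Fars2 overlap of Nrn1. The genes, pathway lists and markers were chosen with earlier results of these data known. Text names the 10 genes, Cpeb1, list genes that passed (at most the 6 smallest p) or the smallest p where none did, markers that moved with a result, and the 3 genes most like each. Fars2, Ntrk2, Nptxr, Egr2 and Fabp7 were named after their values were seen. Alternatives changed the pseudocount, filter, scaling, trend, libraries or genes fitted, and the replicate block. List counts without 3 single libraries were added after seeing the data.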

Additional observations from a re-analysis of the deposited data

Results flagged for a closer look

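Arc and Nrn1 stood out because every injured wild-type library lay above the naive ones while every injured knockout library lay below them. For Arc the injury change in knockout minus that in wild type was -4.42 log2 units (limma adjusted p = 0.529), and over 19 alternative settings it ranged from -7.07 to -2.22. For Nrn1 it was -1.32 (limma adjusted p = 0.791), ranging from -1.64 to -1.01. Neither difference passed the test over all genes, and 1.37% of all tested genes showed the same opposite ordering of libraries.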

How the results depend on the processing

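Over 20 settings, 45 gene results gave 886 values. Of these, 864 kept their direction and side of the threshold, 10 lost the call (all Arc in injured wild-type neurites) and 12 turned direction. Besides the left-out libraries named above, Arc lost its call with a pseudocount of 0.1, with no filter, and in a fit of the compared groups alone (limma adjusted p = 0.154, 0.115 and 0.101). Those 3 settings left 1 of the 10 genes called, and leaving out a library left 1 to 2. With a library left out, values that turned direction ranged, for injury in knockout, from -0.14 to 1.11 for Homer1, -0.14 to 1.23 for Nptx2, -0.29 to 0.58 for Rgs2 (also -0.061) and -0.72 to 0.30 for Inhba. Between naive genotypes Bdnf ranged from -0.36 to 1.04 and Inhba from -0.44 to 0.58, and Inhba was also -0.014 under quantile and -0.014 under median-ratio scaling, and -0.21 with the replicate block. Homer1 ranged from -1.25 to 0.0038 between injured genotypes and from -0.93 to 0.33 for the difference of injury changes. The cause was not tested.

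Genes called after injury in wild type numbered 149, against 25 with no filter, 77 without a trend, 17 with only the groups compared and 35 to 306 with a library left out. In knockout there were 9, against 1 with a pseudocount of 0.1, 33 with no filter, 4 with quantile normalization, 1 without a trend, 0 with only the groups compared and 0 to 20 with a library left out. Between naive genotypes there were 23, against 52 with no filter, 5 among protein-coding genes, 15 with only the groups compared and 15 to 26 with a library left out. Between injured genotypes there were 41, against 10 among protein-coding genes, 15 with only the groups compared and 25 to 57 with a library left out. For the difference of injury changes there were 0, against 13 with no filter, 3 without a trend and 0 to 2 with a library left out. The share called higher after injury in wild type was 73.8%, 61.0% with quantile normalization and 48.0% with no filter. In knockout it was 44.4%, and 75.0% with quantile normalization.

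Replicate numbers are shared between groups, but same-numbered libraries did not deviate together (correlations of -0.0014 to 0.031 between the wild-type groups and -0.031 between the knockout groups), so they were not taken as pairs. With the replicate block, 146, 5, 20, 30 and 0 genes were called in the 5 comparisons, and Arc and Npas4 remained called after injury in wild type. Nptx1 was not tested at a minimum value of 5, and Ptgs2 was tested only with no filter. Where 1 library remained in a group, it was assumed to vary like the other groups. The few libraries and the low FPKM of Arc, Npas4 and Nptx1 in naive neurites limit precision.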
